A study of Mus musculus with 4 samples.

Results

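The genes of MHC class I antigen presentation were followed through the adult and developing mouse prostate epithelium. They were 9 of the 31053 genes counted in these libraries, taken as a list by their role in the pathway, with earlier results of these data known: B2m, H2-K1, H2-D1, Tap1, Tap2, Tapbp, Psmb8, Psmb9 and Nlrc5. In the adult epithelium 8 of them were among the 10025 genes that passed the filter on low counts. Nlrc5 did not pass.

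Nearly all nucleated cells show fragments of their own proteins to cytotoxic T cells on class I molecules. The proteasome cuts the proteins, a transporter moves the peptides into the endoplasmic reticulum, and chaperones load them there onto a heavy chain paired with beta-2 microglobulin. Cells can raise the whole set together, above all in response to interferons, through factors that bind short shared boxes in the promoters.

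Single-cell RNA-seq counts came from EPCAM+ cells of P2-Runx1:RFP mice on an outbred ICR (CD-1) background, in which the proximal P2 promoter of Runx1 directs a red fluorescent protein. The mice were adult, over 8 weeks old, and either intact or castrated more than 4 weeks before. RFP+ and RFP- cells were sorted from the anterior prostate (AP), the dorsolateral prostate (DLP) and the ventral prostate (VP), tagged with lipid-bound barcodes and pooled in 3 runs. The pools came from 4, 3 and 4 intact mice in runs 1, 2 and 3, and from 4 and 5 castrated mice in runs 1 and 2. Castrated lobes were pooled in run 1, so lobes of castrated mice could be compared with intact ones in run 2 alone. Intact DLP RFP+ cells were available in run 3 only. For the barcodes of the VP RFP+ and VP RFP- cells of run 3 the study's sample sheet and its oligo list give different sequences, and the cells follow the deposited barcode names. Without run 3 edgeR called 5 members between the VP compartments and 2 between RFP- luminal cells of the VP and the AP, as many as with it. The comparison of VP RFP+ with RFP- luminal cells, and that of the RFP difference between AP and VP, rest most on these labels. Both had 0 members called with and without run 3, so these counts cannot show whether the labels are right. A further library held explants of the urogenital sinus of E15.5 embryos of the same line, cultured with 10 µM dihydrotestosterone and sampled at days 0, 1, 3 and 6 as 1 pool of explants a day.

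Cells assigned to 1 sorted population numbered 824, 2194 and 1673 in runs 1 to 3 and 5198 in the explant library, with a median of 9750 to 13055 UMIs per adult cell and 14784.5 per explant cell. No pair of libraries shared more than 6 cell barcodes. Epithelial cells were called basal or luminal by summed Krt5 and Krt14, and UMIs were summed per run, sorted population and compartment. The basal factor Trp63, which the gate did not use, averaged 81.3 to 138.9 CPM (UMIs per 1000000, scaled) across groups of basal sums and 0.755 to 6.00 CPM across groups of luminal sums. Runx1 averaged 103.7 ± 27.6 CPM in AP RFP+ luminal sums and 14.6 ± 2.26 CPM in AP RFP- luminal sums (SD, n = 3 runs). Replicates are the runs, each a pool of mice. Where groups of runs are said not to overlap, this describes them only, as the share of all genes without overlap was not counted. UMIs are counted at the 3′ end of transcripts and are not divided by transcript length, so each level is compared across populations within 1 gene and not between genes.

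The promoters of 5 members are shown, each with at least 1 of the boxes through which the family is known to be raised together. Of the strings searched, Tap1 and Psmb9 held a Y box alone. Only matches to these strings were looked for, so other forms of a box would be missed and are not marked. The 250 bases before the start of each gene were taken from RefSeq on GRCm38.p6, strand of the gene, 5′ to 3′, for the 7 members with an entry. Capitals mark the motifs, searched on both strands: an interferon-stimulated response element core (GAAA and GAAA with any 2 bases between), the X2 box core (TGACGC), the Y box (ATTGG, which reads CCAAT on the other strand), a kappa-B site of enhancer A (GGGG, ATT and CCCC in 1 run) and a gamma-activated site (TTCNNNGAA). The B2m window lies at chr2:122147437-122147686 on the plus strand, the H2-K1 window at chr17:34000348-34000597 on the minus strand and the H2-D1 window at chr17:35262844-35263093 on the plus strand. Tap1 and Psmb9 start back to back on opposite strands and share 225 bases, chr17:34187331-34187555, which are shown on the plus strand.
B2m: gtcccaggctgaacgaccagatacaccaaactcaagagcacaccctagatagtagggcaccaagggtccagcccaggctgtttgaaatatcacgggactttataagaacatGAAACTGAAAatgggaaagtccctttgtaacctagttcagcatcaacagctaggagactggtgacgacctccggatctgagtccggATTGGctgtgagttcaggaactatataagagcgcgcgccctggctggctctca
H2-K1: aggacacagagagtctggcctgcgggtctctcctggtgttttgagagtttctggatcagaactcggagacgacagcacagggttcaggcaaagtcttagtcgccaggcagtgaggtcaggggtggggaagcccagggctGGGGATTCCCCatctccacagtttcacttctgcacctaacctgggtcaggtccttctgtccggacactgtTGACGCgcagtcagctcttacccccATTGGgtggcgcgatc
H2-D1: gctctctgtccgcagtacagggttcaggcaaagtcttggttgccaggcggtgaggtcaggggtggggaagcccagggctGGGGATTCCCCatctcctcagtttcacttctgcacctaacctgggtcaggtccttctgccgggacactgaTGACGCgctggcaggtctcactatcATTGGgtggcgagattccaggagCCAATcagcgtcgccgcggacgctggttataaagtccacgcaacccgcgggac
Tap1 and Psmb9: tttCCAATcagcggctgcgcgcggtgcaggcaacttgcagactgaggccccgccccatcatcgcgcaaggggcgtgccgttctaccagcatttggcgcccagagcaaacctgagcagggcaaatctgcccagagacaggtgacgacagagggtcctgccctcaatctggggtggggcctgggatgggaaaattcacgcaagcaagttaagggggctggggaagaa

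The H2-K1 and H2-D1 windows each held the kappa-B site, the X2 core and a Y box in the same order. The kappa-B site lay 111 to 101 bases before the start of H2-K1 and 171 to 161 bases before that of H2-D1, and it was found in 0.0304% of 32851 mouse promoters of the same length. The X2 core lay 41 to 36 bases before H2-K1 and 101 to 96 bases before H2-D1, and 6.12% of promoters held it. Aligned over their whole length with gaps allowed, the windows of both heavy chains had 170 of 250 bases identical (68.0%). The share was 40.8% for H2-K1 with B2m and 45.6% for H2-D1 with B2m. The share for unrelated windows was not measured. The response element of B2m lay 139 to 130 bases before its start, a match that 2.98% of promoters had. Y boxes, which 33.8% of promoters had, also lay in the B2m and Tapbp windows, and 1 Y box lay in the bases that Psmb9 and Tap1 share. The Psmb8 window held a gamma-activated site (7.02% of promoters).

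H2-K1 and H2-D1, the classical heavy chains, are close relatives, and B2m is the light chain common to all class I molecules. Of the 60-base windows over the 3′ end of H2-D1, 2.31% were shared with H2-K1, and reads there may have been lost or split. The reference genome is C57BL/6J, while the mice were outbred, and these 2 genes are polymorphic, so their levels may be undercounted by an amount that was not measured. That amount may differ between pools of different animals, as between intact and castrated mice or between explant days. Tap1 and Tap2 form the peptide transporter, Tapbp (tapasin) bridges it to the heavy chain, Psmb8 and Psmb9 are the inducible catalytic subunits of the immunoproteasome, and Nlrc5 is the transactivator of class I promoters. On GRCm38, B2m lies on chr2 and Nlrc5 on chr8, and the others lie on chr17 between bases 33915899 and 35267499, in the order Tapbp, H2-K1, Psmb9, Tap1, Psmb8, Tap2 and H2-D1. In these gene spans, which are from GENCODE, Tap1 and Psmb9 overlap at their starts on opposite strands, away from the counted 3′ ends. The RefSeq starts used for the promoters leave 225 bases between them.

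B2m separated the luminal from the basal compartment in each lobe. Its level was 1477, 1389 and 1004 CPM in AP RFP- luminal sums of runs 1 to 3 and 1385, 1284 and 2013 CPM in AP RFP+ luminal sums. It was 2109, 2643 and 3372 CPM in DLP RFP- luminal sums, 1365, 2927 and 3257 CPM in VP RFP- luminal sums and 1256, 1507 and 2556 CPM in VP RFP+ luminal sums. Basal sums reached at most 415 CPM, in VP RFP+ cells of run 3. The basal and luminal ranges did not overlap.

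The heavy chains were spread over lobes in another order than B2m. H2-K1 was lowest in AP RFP- luminal cells, at 265, 266 and 142 CPM, and highest in VP RFP+ luminal cells, at 796, 811 and 1155 CPM. Between them lay AP RFP+ luminal cells (437, 374.5 and 369 CPM), DLP RFP- luminal cells (448, 507 and 449 CPM) and VP RFP- luminal cells (456, 690 and 817 CPM). The DLP RFP- and VP RFP- sums, next to each other in this order, overlapped, as did AP RFP+ basal sums (283, 413 and 310 CPM) with AP RFP+ luminal ones. Among luminal sums H2-D1 likewise ran from 679, 648 and 330 CPM in AP RFP- cells to 1361, 1232 and 1480 CPM in VP RFP+ cells. The only DLP RFP+ luminal sum, of run 3 and 69 cells, held 912 CPM of H2-K1 and 1218 CPM of H2-D1.

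Psmb8, the immunoproteasome subunit, was likewise lowest in AP RFP- and highest in VP RFP+ cells among luminal groups with 3 runs. It was 31.7, 31.4 and 8.42 CPM in AP RFP- luminal cells, 87.7, 71.1 and 57.9 CPM in AP RFP+ luminal cells and 124, 89.7 and 171 CPM in VP RFP+ luminal cells. The 3 groups did not overlap, and the only DLP RFP+ luminal sum, of run 3, held 132 CPM. Psmb9 ran from 19.1, 26.5 and 10.8 CPM in AP RFP- luminal cells to 49.2, 40.3 and 50.9 CPM in VP RFP+ luminal cells. Tap1 was at 7.78, 6.71 and 2.41 CPM and 20.8, 13.1 and 25 CPM in the same groups. Nlrc5 reached at most 2.19 CPM in an intact sum of basal or luminal cells, from 4 UMIs in DLP RFP+ luminal cells. In 3 AP RFP- luminal sums it had 0, 1 and 0 UMIs, so differences in this gene were not detectable at this depth. Over the 31 intact epithelial sums, log2 levels of Psmb8 and Psmb9 correlated at r = 0.889 and those of H2-K1 and H2-D1 at 0.834, while the lowest correlation among the 8 members was that of B2m with Tap1, 0.387. These sums share libraries, mice and depth, and the values describe them only.

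**Figure D1:**
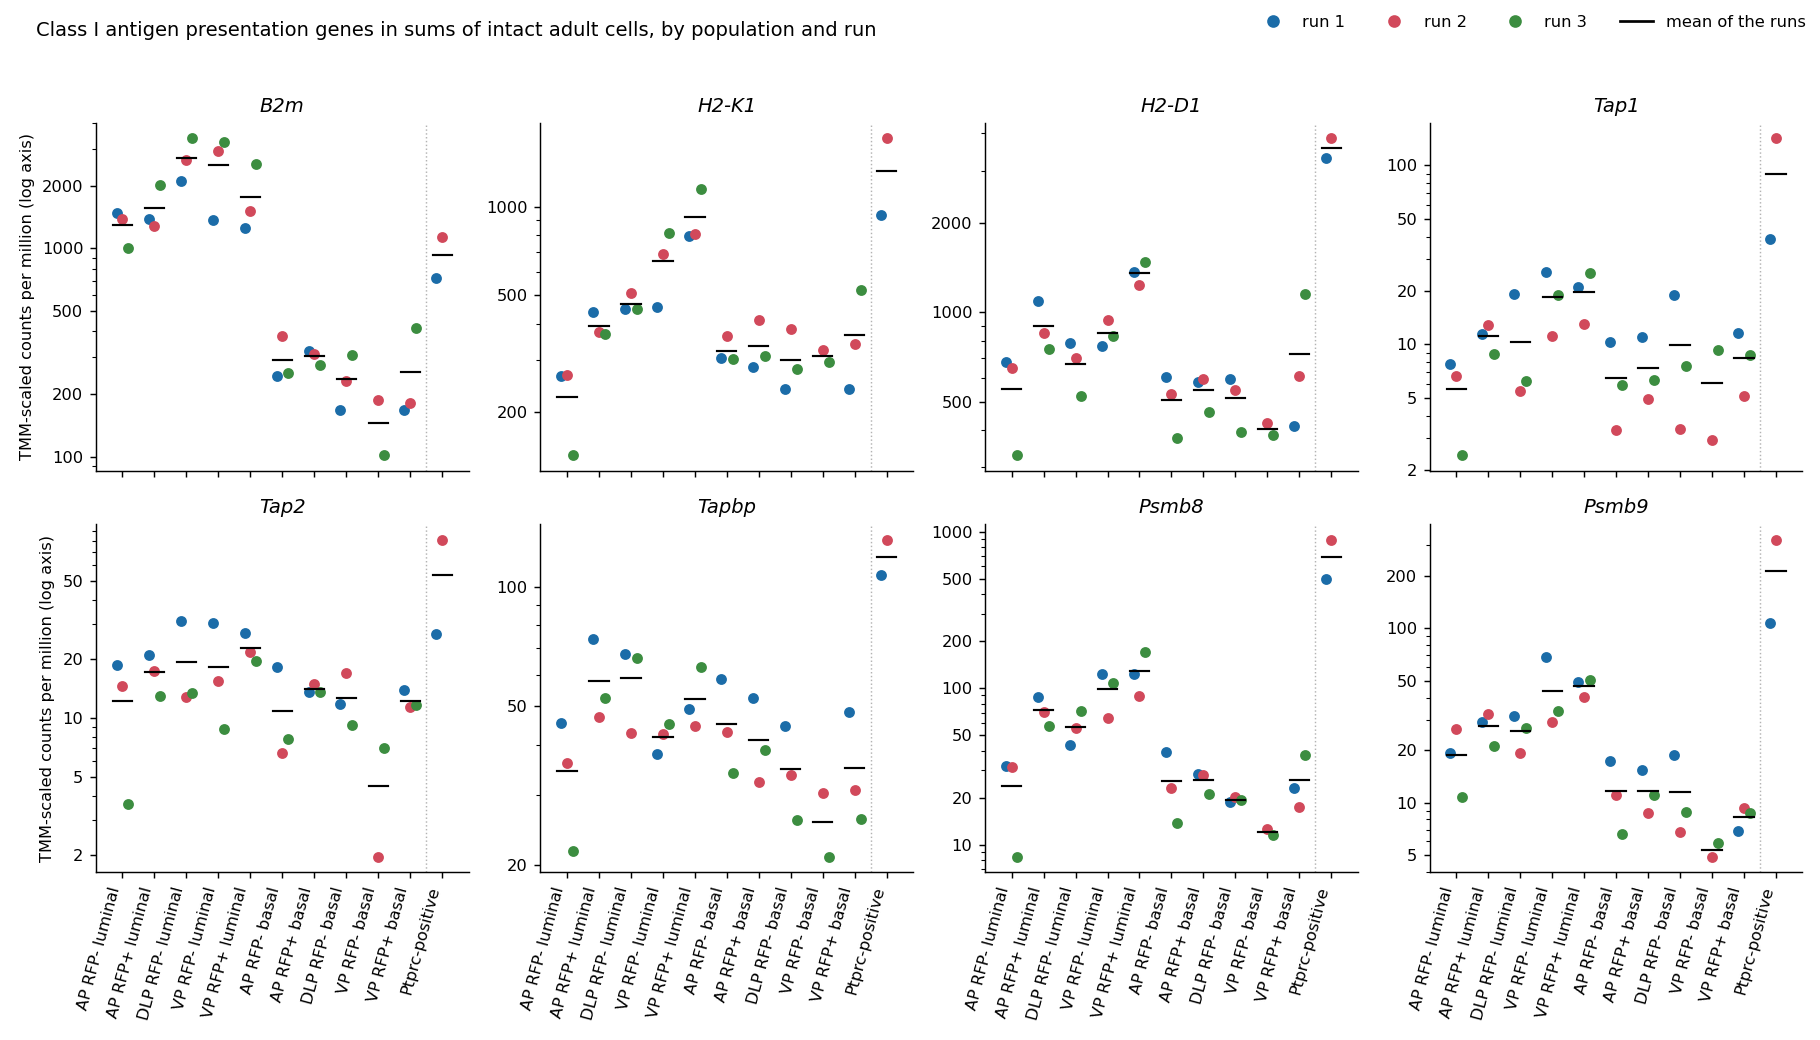
Level of the members (TMM-scaled CPM, log axis) in each intact sorted population and compartment, 1 point per run, each the sum of at least 10 cells, with bars at the mean of the runs and the Ptprc-positive cells as a reference. B2m lies between 1004 and 3372 CPM in luminal sums and at or below 415 CPM in basal sums, while Psmb8 is lowest in AP RFP- luminal and basal cells.

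Cells positive for Ptprc, the pan-leukocyte surface protein CD45, were set beside the epithelium as a reference, with no test. In 33 and 216 intact cells of runs 1 and 2, Psmb8 was at 499 and 887 CPM, H2-D1 at 3307 and 3848 CPM and H2-K1 at 941 and 1713 CPM. The epithelial sums reached at most 171 CPM for Psmb8 and 1480 CPM for H2-D1. B2m was at 721 and 1140 CPM in the Ptprc-positive sums, against 1004 to 3372 CPM in luminal sums. Nlrc5 was at 2.97 and 7.71 CPM, from 1 and 12 UMIs. Markers of blood cells in the epithelial sums were low: the 12 hematopoietic markers summed to 1.18 to 77.0 CPM in intact epithelial sums and to 32200 to 39000 CPM in intact Ptprc-positive ones. Ptprc, Laptm5, Coro1a and Cd52 among them also set the gates of both kinds of cell, so part of this gap was fixed in advance. AP RFP- luminal sums held the most, 61.1 to 77.0 CPM, with 5 of the 12 at 0 (Ptprc, Laptm5, Cd3d, Itgam and Nkg7). Tyrobp, Fcer1g, Lyz2 and Cd74, which the gates did not use, summed to 0 to 10.2 CPM there. Fewer cells and less RNA per cell cannot be told apart in such sums.

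The first comparison set RFP+ against RFP- luminal cells of the AP, and so asked whether cells with Runx1 promoter activity carried more of the pathway. H2-K1 and Psmb8 were higher in RFP+ cells, and the other 6 tested members were not past the threshold. Of all genes tested, 20.8% were called (10.9% higher), so 2 of 8 members was close to the background. Psmb8 averaged 72.2 ± 14.9 CPM in RFP+ and 23.9 ± 13.4 CPM in RFP- sums, a log2 fold change of 1.51 with a standard error of 0.35 (edgeR quasi-likelihood test, adjusted p = 0.00254). It was higher in 3 of 3 runs, and the groups did not overlap. H2-K1 averaged 394 ± 37.9 and 224 ± 71.2 CPM, with a log2 fold change of 0.81 ± 0.27 (SE) and an adjusted p of 0.0369. This call was lost when run 1, 2 or 3 was left out (adjusted p = 0.0569, 0.171 and 0.216), whereas Psmb8 stayed past the threshold (0.02, 0.0483 and 0.0131).

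H2-D1 and Tapbp did not overlap between the same groups either, with log2 fold changes of 0.70 and 0.72, and missed the threshold (adjusted p = 0.108 and 0.0592). Sums of 1 run come from the same mice, and with the run as a block both passed (adjusted p = 0.041 and 0.0106), which made 4 of 8 members. How many of all genes did not overlap between these groups was not counted. B2m had a log2 fold change of 0.27 (SE 0.36, adjusted p = 0.676), and without run 3 the value was -0.10. All 8 members had positive log2 fold changes, with a median of 0.71 against -0.0077 over all genes. Of the genes called, 52.3% were higher with TMM scaling, 65.1% with library sizes that left out the 50 most abundant genes and 67.1% without scaling factors, and H2-K1 and Psmb8 were higher under each. The 12 hematopoietic markers summed to 16.6 to 48.1 CPM in RFP+ sums, below the RFP- sums. Of these, Tyrobp, Fcer1g, Lyz2 and Cd74, outside the gates, summed to 0 to 31.9 CPM in RFP+ and 0 to 10.2 CPM in RFP- sums. Cd74 alone reached 29.1 CPM in RFP+ and 7.41 CPM in RFP- sums. The part of these markers in the result was not tested.

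RFP+ luminal cells of the AP were largely of the proximal type, marked by genes such as Psca, Krt4, Krt7 and Wfdc2. In run 1, 165 of 193 such cells were proximal. By run, Psmb8 was at 92.2, 84.1 and 69.1 CPM in proximal RFP+ cells, at 59.6, 47.3 and 23.03 CPM in the other RFP+ luminal cells and at 25.9, 26.6 and 8.42 CPM in the other RFP- luminal cells. H2-K1 in those groups was at 460, 358 and 379 CPM, at 295, 411 and 278 CPM and at 233, 245 and 142 CPM. Both genes were above the RFP- values in the other RFP+ luminal cells of each run, although Psmb8 in run 3 was below the RFP- values of runs 1 and 2.

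Genes around the members moved in both directions in this comparison. The calreticulin-type chaperones of the loading complex were lower in RFP+ cells: Calr was at 645, 470 and 383 CPM in RFP+ sums and at 2107, 1255 and 1178 CPM in RFP- sums, a log2 fold change of -1.60 (adjusted p = 0.000114). Pdia3, a disulfide isomerase of the same complex, fell by 1.08 (adjusted p = 0.000707), and Canx fell by 0.81 on the log2 scale (adjusted p = 0.00451). These chaperones also serve the folding of other glycoproteins. The third inducible proteasome subunit, Psmb10, was at 45.3, 47.6 and 40.1 CPM in RFP+ and at 19.8, 21.5 and 9.63 CPM in RFP- sums (log2 1.29, adjusted p = 0.000467), and the activator subunit Psme1 was higher by 0.95 (adjusted p = 0.00592). The nonclassical gene H2-T23 was higher by 1.04 (adjusted p = 0.012). None of the 3 constitutive catalytic subunits passed. Over 7 lists of related genes, 5 of 50 tested list genes were higher and 6 lower. Of all genes 20.8% were called and 10.9% called higher, so the list genes were called about as often as the background. Among those called were Jak2 (1.25, higher), Stat2 (-1.23, lower) and, of 13 interferon-induced genes, Ifi35 alone (0.75, adjusted p = 0.032).

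In the VP the RFP comparison gave no call among the members. H2-D1 was at 1361, 1232 and 1480 CPM in RFP+ and at 770, 940 and 835 CPM in RFP- luminal sums. The groups did not overlap, yet the log2 fold change of 0.68 had an adjusted p of 0.526. H2-K1 (log2 0.49, adjusted p = 0.615) and B2m (-0.51, 0.714) overlapped. Over all genes edgeR called 31 (0.309%) and DESeq2 68, with 889 and 528 at an unadjusted p under 0.05. The median log2 fold change was 0.36 for members and 0.22 for all genes. The RFP- sum of run 1 held 10 cells. Of the called genes 16.1% were higher, against 2.44% with RLE scaling and 47.8% without the low-count filter. No gene of the 7 lists passed.

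Whether the RFP difference itself differed between the lobes was tested as an interaction. None of the 8 members passed, where 3.68% of genes did. For Psmb8 the difference was 1.09 on the log2 scale (adjusted p = 0.214). DESeq2 called 442 genes and edgeR 369, none of them members, with 1857 at an unadjusted p under 0.05 in edgeR. Of the calls 36.3% were positive, 65.4% with DESeq2, 62.8% with RLE scaling and 81.6% without scaling factors. The list gene Stat2, a transducer of type I interferon signals, had a difference of -1.63 (adjusted p = 0.0426). It was at 4.46, 6.16 and 5.94 CPM in AP RFP+ cells and at 11.4, 14.8 and 10.8 CPM in AP RFP- cells, and at 23.3, 15.02 and 25.6 CPM in VP RFP+ and 27.9, 12.4 and 13.1 CPM in VP RFP- cells. It was not past the threshold with DESeq2 (0.218) or without run 1, 2 or 3 (0.0963, 0.344 and 0.363).

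Basal cells of the AP showed no call either. Log2 fold changes of RFP+ over RFP- basal cells lay between -0.11 and 0.35 for the 8 members. No gene among the 10025 was called by edgeR or by DESeq2 (0% of those tested), with 166 and 107 genes at an unadjusted p under 0.05. The median was 0.07 for members and 0.06 for all genes.

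**Figure D2:**
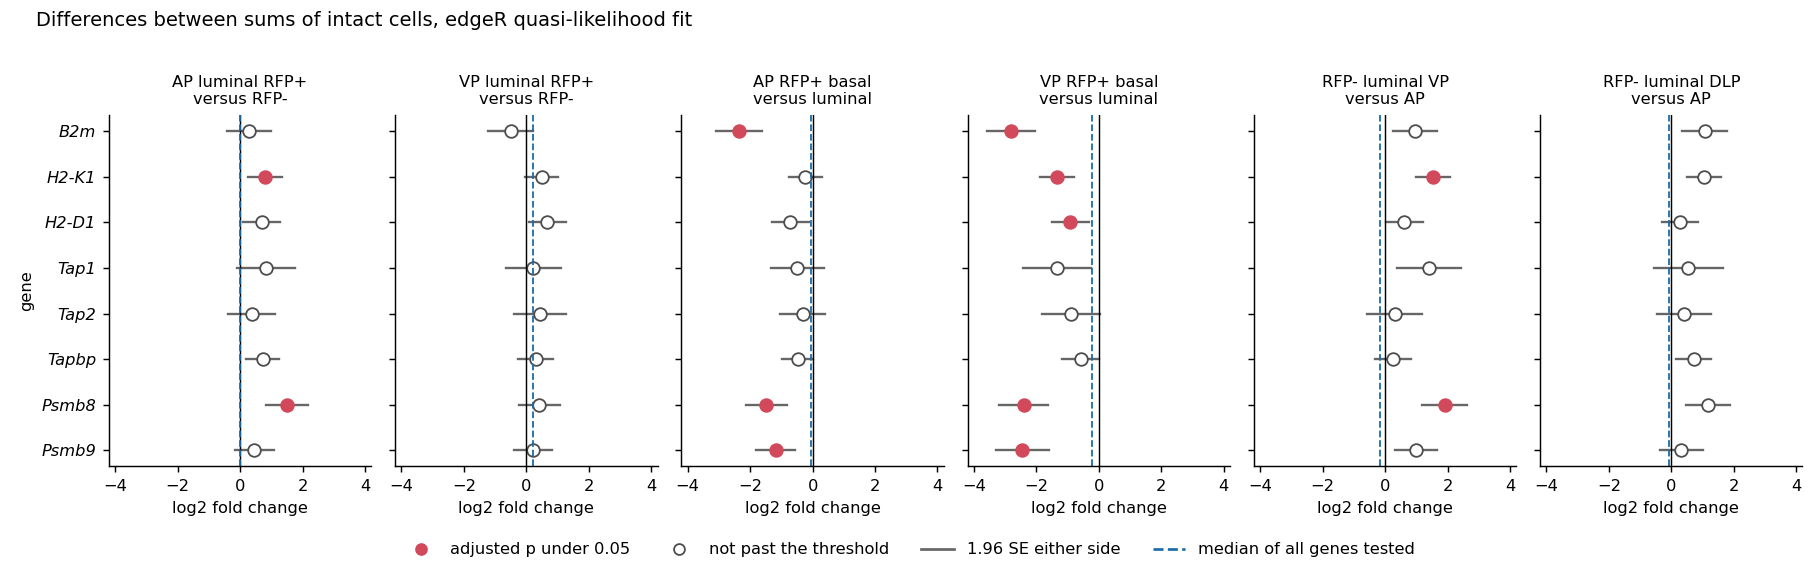
Log2 fold change of each tested member (x axis) in 6 comparisons between sums of intact cells (points, with bars of a normal 95% interval from the standard error, n = 3 runs in each group), with filled points past an adjusted p of 0.05 and the median of all genes tested as a dashed line. Psmb8 and H2-K1 are past it in the AP RFP comparison (1.51 and 0.81) and in the comparison of lobes (1.91 and 1.54), and B2m in both comparisons of compartments (-2.36 and -2.81). In the VP compartment comparison the values of H2-D1, Tap1, Tap2 and Tapbp, and between VP and AP those of H2-D1, Tap2 and Tapbp, change sign without scaling factors.

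The compartments differed most in the light chain and the immunoproteasome. In AP RFP+ cells B2m averaged 303 ± 23.8 CPM in basal and 1561 ± 395 CPM in luminal sums, a log2 fold change of -2.36 ± 0.38 (SE, adjusted p = 2.81e-05). Psmb8 was at 28.6, 27.9 and 21.1 CPM in basal sums, against 87.7, 71.1 and 57.9 CPM in luminal ones, and fell by 1.48 ± 0.34 (adjusted p = 0.00148). Psmb9 was at 15.4, 8.70 and 11.0 CPM in basal and at 28.8, 32.5 and 21.3 CPM in luminal sums, a log2 fold change of -1.17 ± 0.32 (adjusted p = 0.00612), a call lost without run 2 (0.161). These 3 of 8 members were lower in basal cells in 3 of 3 runs with no overlap, against 28.5% of all genes called and 14.5% called lower. H2-K1 overlapped between the compartments (log2 -0.23, adjusted p = 0.574). H2-D1 (-0.71, 0.0763) and Tapbp (-0.48, 0.178) passed only with the run as a block (0.0305 and 0.0463), which made 5 of 8.

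Cell by cell, the lower quartile of B2m in luminal cells lay above the upper quartile in basal cells in 14 of 15 intact sorted populations with both. The exception was AP RFP- of run 3, with luminal quartiles of 2.76 and 11.9 UMIs per 10000 and basal ones of 1.15 and 4.11, and VP RFP+ of run 1 lay close to it, with a luminal lower quartile of 3.86 and a basal upper quartile of 3.79. In run 1 the quartiles of AP RFP+ luminal cells were 12 and 25.7 B2m UMIs per 10000, with a median of 18.1. Those of basal cells from the same sort were 1.98 and 4.57, with a median of 3.21. Depths were similar, with medians of 12835 and 16305 UMIs per cell.

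In VP RFP+ cells 5 members were called lower in basal than in luminal sums, where 40.1% of all genes were called and 24.3% called lower. B2m was at 168, 181 and 415 CPM in basal sums (log2 -2.81 ± 0.39, adjusted p = 2.41e-06) and H2-K1 at 240, 341 and 519 CPM, a difference of -1.33 ± 0.28 (adjusted p = 0.000408). Psmb8 was at 23.04, 17.5 and 37.7 CPM in basal sums (-2.40 ± 0.40, adjusted p = 3.02e-05) and Psmb9 at 6.91, 9.25 and 8.70 CPM (-2.45 ± 0.43, adjusted p = 5.34e-05). H2-D1 was at 412, 608 and 1148 CPM, all below the luminal range, and fell by 0.91 ± 0.30 (adjusted p = 0.0179), a call that DESeq2 (0.0636) and the fits without run 1 or 2 (0.14 and 0.225) did not make. With the run as a block all 8 members passed.

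The values in the VP depended on how libraries were scaled. Secretory transcripts filled VP luminal libraries: the 10 most abundant genes held 59.4 to 61.1% of UMIs in RFP+ luminal sums and 54.8 to 57.8% in RFP- ones, against 9.28 to 13.8% in RFP+ basal sums and 14.3 to 24.5% in AP RFP- luminal sums. The TMM scaling factors, which set the levels given here relative to the remaining RNA, were 0.483 to 0.712 in VP luminal sums. Without scaling factors the median of all genes in the VP compartment comparison stood at 1.16 on the log2 scale instead of -0.20, 92.0% of 6256 calls were higher in basal cells instead of 39.3% of 4017 calls, and only B2m and Psmb8 were still called lower. H2-D1, Tap1, Tap2 and Tapbp turned positive there (0.35, 0.01, 0.43 and 0.78). With RLE scaling, DESeq2 and library sizes without the top genes the share of higher calls was 54.8, 54.3 and 50%. The median log2 fold change was -1.33 for members and -0.20 for all genes with TMM.

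The lists moved mostly downward in VP basal cells under TMM scaling, with 23 of 50 genes lower and 2 higher, against 5 lower and 20 higher without scaling factors. Of all genes 40.1% were called and 24.3% called lower there under TMM scaling. The class I-like gene H2-Q2 was at 0.768 CPM in basal and 23.9 CPM in luminal sums (log2 -5.20). Stat2 (-3.58), a transducer of interferon signals, and the interferon-induced Ifit1 (-4.50) were lower, and the interferon-gamma receptor chain Ifngr1 was higher (1.67, adjusted p = 6.09e-06). In AP RFP+ basal cells 3 of 50 list genes were higher and 7 lower, where 28.5% of all genes were called and 14.5% called lower. Ifitm3, a membrane protein induced by interferon, was at 1113 CPM in basal and 143 CPM in luminal sums (log2 2.96), while Rtp4 (-5.00) and Irf8 (-1.67) were lower.

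Between lobes, RFP- luminal cells of the VP carried more H2-K1 and Psmb8 than those of the AP. H2-K1 was at 456, 690 and 817 CPM in the VP and at 265, 266 and 142 CPM in the AP, a log2 fold change of 1.54 ± 0.28 (SE, adjusted p = 0.000395). Psmb8 was at 124, 65.0 and 108 CPM in the VP and at 31.7, 31.4 and 8.42 CPM in the AP (1.91 ± 0.36, adjusted p = 0.000673). Both were higher in 3 of 3 runs, did not overlap, and stayed past the threshold without each run in turn and without scaling factors. In all, 14.6% of genes were called and 5.79% were called higher, against 2 of 8 members. The median log2 fold change was 0.98 for members and -0.15 for all genes.

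The next 3 members in size of the difference missed the threshold. Psmb9 was at 68.4, 29.1 and 33.4 CPM in the VP (log2 0.99, adjusted p = 0.0507), Tap1 at 25.3, 11.1 and 18.9 CPM (1.41, 0.0716) and B2m at 1365, 2927 and 3257 CPM (0.96, 0.0775). With the run as a block they passed (0.0212, 0.0132 and 0.0309), as they did with DESeq2 (0.0206, 0.0314 and 0.0106), which made 5 of 8 members. H2-D1 (0.62, adjusted p = 0.187), Tap2 (0.30) and Tapbp (0.26) did not pass and turned to -0.23, -0.50 and -0.61 without scaling factors. That setting took the median of all genes from -0.15 to -1.03 and the share of higher calls from 39.5% of 1467 to 3.69% of 5659. With DESeq2 and RLE scaling the share was 56.8 and 52.0%. Hematopoietic markers summed to 1.45 to 22.9 CPM in the VP sums and to 61.1 to 77.0 CPM in the AP sums, and their part in the result was not tested.

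Interferon-induced genes formed the larger part of the list genes called between these lobes. Of 13 tested, 11 were higher in the VP, and of all 50 list genes 15 were higher and 4 lower. Over all genes 14.6% were called and 5.79% called higher. Ifit1 was at 620.6, 21.0 and 56.7 CPM in the VP and at 1.197, 7.77 and 1.203 CPM in the AP (log2 5.62, adjusted p = 0.000675). The VP sum of run 1, from 10 cells, was far above the others. Isg15, a ubiquitin-like modifier, was at 258, 8.04 and 75.6 CPM against 4.79, 8.82 and 2.41 CPM, and overlapped (4.02, 0.00795). The regulator Irf7 was at 98.8, 26.0 and 131 CPM against 2.39, 15.2 and 9.63 CPM (3.06, 0.00219). Without run 1, 4 of the interferon-induced genes were called higher, with log2 fold changes of 2.57 for Ifit1 (adjusted p = 0.0413), 2.29 for Isg15 (0.253) and 2.40 for Irf7 (0.0726). Without run 2 the count was 9 and without run 3 it was 3. Psmb10 was higher in the VP by 1.01 (adjusted p = 0.013, 0.0735 without run 1 and 0.211 without run 3), and the receptor chain Ifngr1 was lower by 2.33 on the log2 scale, with 13.2 against 69.5 CPM.

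**Figure D3:**
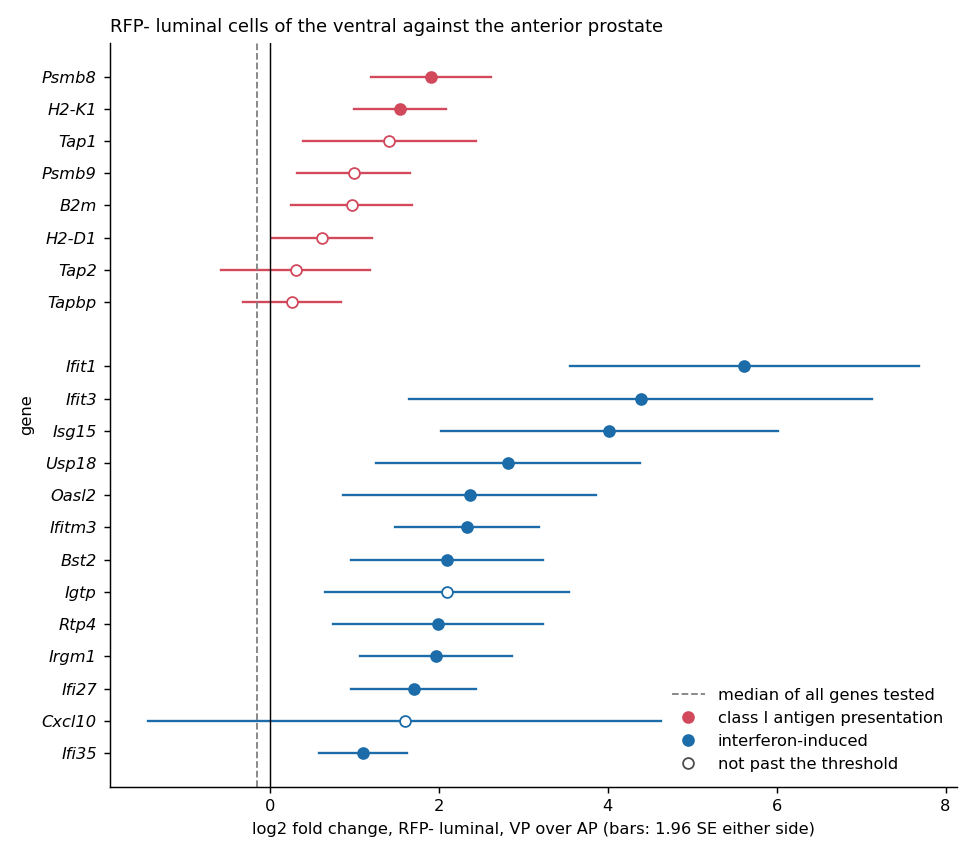
Log2 fold change of RFP- luminal cells, VP over AP (x axis), for the 8 tested members (red) and 13 interferon-induced genes (blue), with bars of a normal 95% interval from the standard error, open points not past the threshold and the median of all genes tested as a dashed line. The members lie between 0.26 (Tapbp) and 1.91 (Psmb8), but H2-D1, Tap2 and Tapbp fall below 0 without scaling factors, and 11 of the 13 interferon-induced genes are past the threshold.

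RFP- luminal cells of the DLP were compared with the AP in the same way, and no member passed. H2-K1, at 448, 507 and 449 CPM in the DLP, was above each AP value (log2 1.06, adjusted p = 0.0737) and passed with the run as a block (0.0127). B2m was also without overlap (1.07, 0.222), as was Psmb8, at 43.4, 55.8 and 71.4 CPM (1.18, 0.16). Over all genes edgeR called 74 (0.738%), with 1021 at an unadjusted p under 0.05, and DESeq2 called 111, H2-K1 (0.00233) and B2m (0.0493) among them. The share of higher calls was 45.9%, 65.8% with DESeq2. The median was 0.63 for members and -0.08 for all genes.

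RFP+ basal cells of the VP and the AP gave no call among the members, where 33 genes (0.329%) were called, 53 by DESeq2 and 893 at an unadjusted p under 0.05. The median log2 fold change was -0.15 for members and -0.14 for all genes. Of the called genes 60.6% were higher, 78.9% with RLE scaling and 32.9% with the run as a block.

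The castrated prostate was compared with the intact one in run 2, with 1 sum of cells on each side and hence no test. The intact and castrated cells came from different mice. Intervals are exact, at 95%, and cover counting error only, not differences between mice. A gene was counted as higher or lower where it passed 2-fold with at least 30 UMIs in 1 of the sums. A deeper sum meets this minimum more easily, so genes that are high in it are more often measured.

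In AP RFP+ luminal cells (99 intact and 189 castrated) the heavy chains and the immunoproteasome stood higher after castration while B2m stood lower. H2-K1 was at 374.5 CPM in intact and 896 CPM in castrated cells, a 2.39-fold difference (log2 1.26, interval 1.14 to 1.38). Psmb8 went from 71.1 to 169 CPM (1.25, 0.97 to 1.54), H2-D1 from 851 to 1249 CPM (0.55, 0.47 to 0.64) and B2m from 1284 to 733 CPM (-0.81, -0.89 to -0.73). Past 2-fold lay 2 of 8 members higher and 0 lower, where 9.36% of measured genes were higher and 5.61% lower. The median was 0.66 for members and 0.13 for all genes.

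The make-up of these cells also differed, with 74 proximal cells of 99 intact and 22 of 189 castrated. Within the other luminal cells (25 and 167) H2-K1 went from 411 to 914 CPM (log2 1.15) and Psmb8 from 47.3 to 174 CPM (1.88), while B2m went from 893 to 749 CPM (-0.25). Within proximal cells H2-K1 went from 358 to 612 CPM (0.77) and B2m from 1498 to 499 CPM (-1.59). Psmb8 there was at 84.1 and 99.1 CPM, and its interval of -0.41 to 0.85 included no difference.

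AP RFP- luminal cells (129 and 49) showed like values. H2-K1 went from 266 to 657 CPM (log2 1.304), Psmb8 from 31.4 to 106 CPM (1.75) and B2m from 1389 to 678 CPM (-1.04), so that 2 of 7 measured members were past 2-fold higher and 1 lower (3.40% and 14.6% of all genes). In AP RFP+ basal cells (106 and 142) Psmb8 went from 28.0 to 62.3 CPM (1.16) and H2-K1 from 413 to 623 CPM (0.60), while B2m, at 310 and 289 CPM, had an interval of -0.29 to 0.09. There 3.40% of genes were higher and 5.07% lower.

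DLP RFP- luminal cells (56 and 22) differed in B2m alone among the members past 2-fold, from 2643 to 795 CPM (log2 -1.73), where 11.2% of genes were lower and 1.49% higher. H2-K1 was at 507 and 539 CPM (0.09, -0.14 to 0.32). H2-D1 went from 702 to 943 CPM (0.43).

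In VP RFP+ luminal cells (193 and 129) B2m went from 1507 to 381 CPM (log2 -1.98), where 11.1% of genes were lower and 4.96% higher. H2-K1 went from 811 to 600 CPM (-0.44, -0.53 to -0.35) and H2-D1 from 1232 to 1074 CPM (-0.20), but without scaling factors these 2 values turned to 0.55 and 0.79 and that of B2m was -0.9964. The 10 most abundant genes held 18.1% of UMIs in the castrated sum. Psmb8 went from 89.7 to 117 CPM (0.39). In VP RFP+ basal cells (70 and 57), where 3.43% of genes were higher and 9.12% lower, H2-K1 went from 341 to 460 CPM (0.43) and H2-D1 from 608 to 478 CPM (-0.35), and Psmb9 had 0 UMIs in the castrated sum, with an exact interval up to 9.69 CPM.

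**Figure D4:**
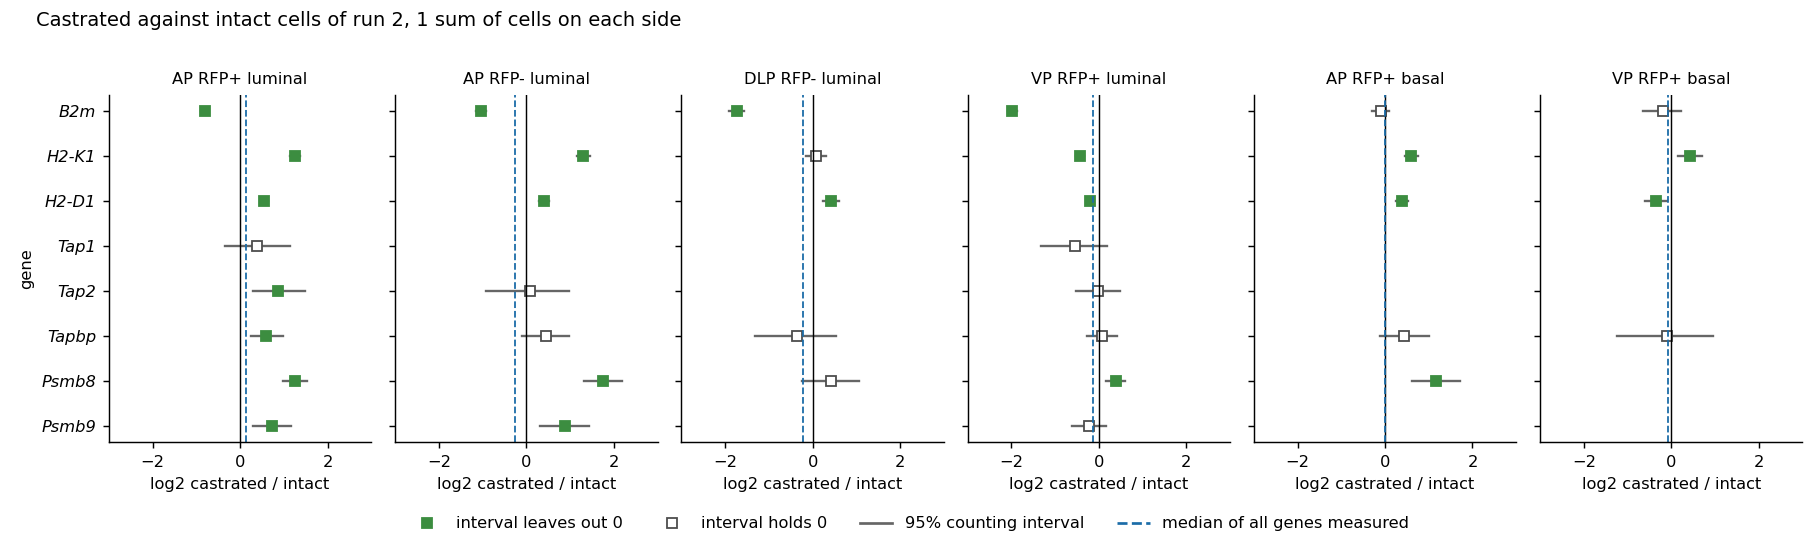
Log2 ratio of castrated to intact cells of run 2 for each member (points, filled where the exact 95% interval for counting error leaves out 0), by sorted population and compartment, for members with at least 30 UMIs in 1 sum, with the median of all measured genes as a dashed line. B2m lies below 0 in the luminal populations, while H2-K1 lies at 1.26 in AP RFP+ and at -0.44 in VP RFP+ luminal cells, the latter turning to 0.55, and H2-D1 there from -0.20 to 0.79, without scaling factors.

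The interferon lists were read over the same sums, where the shares of all genes past 2-fold were those given above for each whole population. Depth differed between the sides, and the deeper side decides more often which genes are measured. Intact and castrated sums held 1686455 and 3286945 UMIs in AP RFP+ luminal and 3050617 and 960526 in AP RFP- luminal cells. They held 9169032 and 2356941 in VP RFP+ luminal and 1298544 and 1311693 in AP RFP+ basal cells. The part of depth in the counts was not tested. In AP RFP+ luminal cells 9 of 11 measured interferon-induced genes were past 2-fold higher and 1 lower, with Isg15 at 11.8 and 62.0 CPM (log2 2.40) and Ifitm3 at 112 and 550 CPM (2.30). Irf7 was at 7.84 and 121 CPM (3.94). Within the proximal cells of this population 1 of 3 measured interferon-induced genes was higher and 0 lower. Their median log2 ratio was 0.953, against -0.195 over all measured genes. Within its other luminal cells 6 of 11 were higher and 2 lower, with a median of 1.14 against 0.265. The shares of all genes past 2-fold were not counted within these parts, so the 2 counts cannot be set against a background. In AP RFP- luminal cells 2 of 4 interferon-induced genes were higher, but of 13 interferon signalling genes 1 was higher and 6 lower, with Irf8 at 10.9 and 2.18 CPM (-2.33, -5.44 to -0.35) and Stat2 at 14.8 and 3.27 CPM (-2.18, -4.51 to -0.53), from 2 and 3 UMIs in the castrated sum. In AP RFP+ basal cells 5 of 7 interferon-induced genes were higher, with Isg15 at 6.21 and 66.8 CPM (3.43). In VP RFP+ luminal cells 0 of 10 were higher and 5 lower, with Isg15 at 19.2 and 3.85 CPM (-2.32) and Ifit1 at 33.3 and 6.84 CPM (-2.28). The scaling factors of these VP sums were 0.501 in intact and 0.992 in castrated cells. The lists were read with TMM scaling only, so the VP count may depend on it. Calr was lower by 1.72 on the log2 scale in AP RFP- luminal cells, from 1255 to 382 CPM.

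Hematopoietic markers were also read in these sums. The 12 genes summed to 55.6 CPM in castrated AP RFP+ luminal cells against 16.6 to 48.1 CPM in the intact runs, with Ptprc, Coro1a and Nkg7 at 0. They summed to 83.1 CPM against 3.38 to 51.6 CPM in AP RFP+ basal cells and to 52.3 CPM against 61.1 to 77.0 CPM in AP RFP- luminal cells. Castrated Ptprc-positive cells held 2207 CPM of H2-K1 with the markers at 28600 CPM. The part of these markers in the result was not tested.

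Explants of the urogenital sinus, in which prostate buds form, were compared across days within 1 library, again with no replicate. H2-K1 was at 23.2, 95.8, 189 and 155 CPM at days 0, 1, 3 and 6, from 391, 1449, 3801 and 5075 UMIs in 669, 726, 1195 and 2426 epithelial cells. H2-D1 was at 22.02, 57.1, 83.4 and 74.1 CPM and B2m at 34.8, 52.7, 66.5 and 68.9 CPM. H2-K1 at day 6 stood above day 0 by 2.74 on the log2 scale (2.59 to 2.89), H2-D1 by 1.75 (1.59 to 1.91) and B2m by 0.99 (0.85 to 1.12). On the log2 scale the larger part of the heavy chains' difference lay between days 0 and 1, and both were lower at day 6 than at day 3.

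Psmb8, Psmb9 and Tap2 rested on few UMIs at day 0. Psmb8 was at 0.712, 5.22, 2.88 and 3.57 CPM, and the day 0 value rested on 12 UMIs. Tap2 had 3 UMIs at day 0 and 90 at day 6, or 0.178 and 2.74 CPM (log2 3.95, 2.35 to 6.25). Tap1 was at 8.43, 11.5, 9.53 and 9.02 CPM (0.10 from day 0 to 6, -0.20 to 0.40). Tapbp went from 11.9 to 24.8 CPM (1.07) and Psmb9 from 0.831 to 2.32 CPM (1.48). Nlrc5 had 1 UMI at day 0 and 0 at days 1, 3 and 6, too few to compare.

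From day 0 to day 1, 3 of 6 measured members were past 2-fold higher, where 3.51% of genes were. From day 1 to 3 the count was 1 of 8 (2.75%) and from day 3 to 6 it was 0 of 8 (2.29%), while between days 0 and 6 it was 6 of 8 (8.98%). The medians over members for these 4 comparisons were 1.08, 0.44, 0.02 and 1.61, against -0.0014, 0.03, 0.0097 and 0.04 over all genes. Runx1 was at 95.04, 88.2, 66.3 and 72.4 CPM over the same days.

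Explants also hold mesonephric and urothelial cells. Without cells that carried their markers, H2-K1 was at 18.3, 87.0, 196 and 152 CPM, a log2 difference of 3.05 from day 0 to day 6, and B2m differed by 0.86. Cells high in Krt5 and Krt14 went from 18.1 to 146 CPM of H2-K1 (3.01) and cells low in them from 36.1 to 169 CPM (2.23). At day 1 Psmb8 was at 13.8 CPM in the low and 1.70 CPM in the high cells. Of 9 measured interferon-induced genes 6 were past 2-fold higher at day 6 than at day 0 and 1 lower, with the chemokine Cxcl10 at 6.35 and 50.1 CPM (2.98). H2-T23 went from 7.95 to 47.8 CPM (2.59), and 0 of the constitutive proteasome subunits passed 2-fold.

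**Figure D5:**
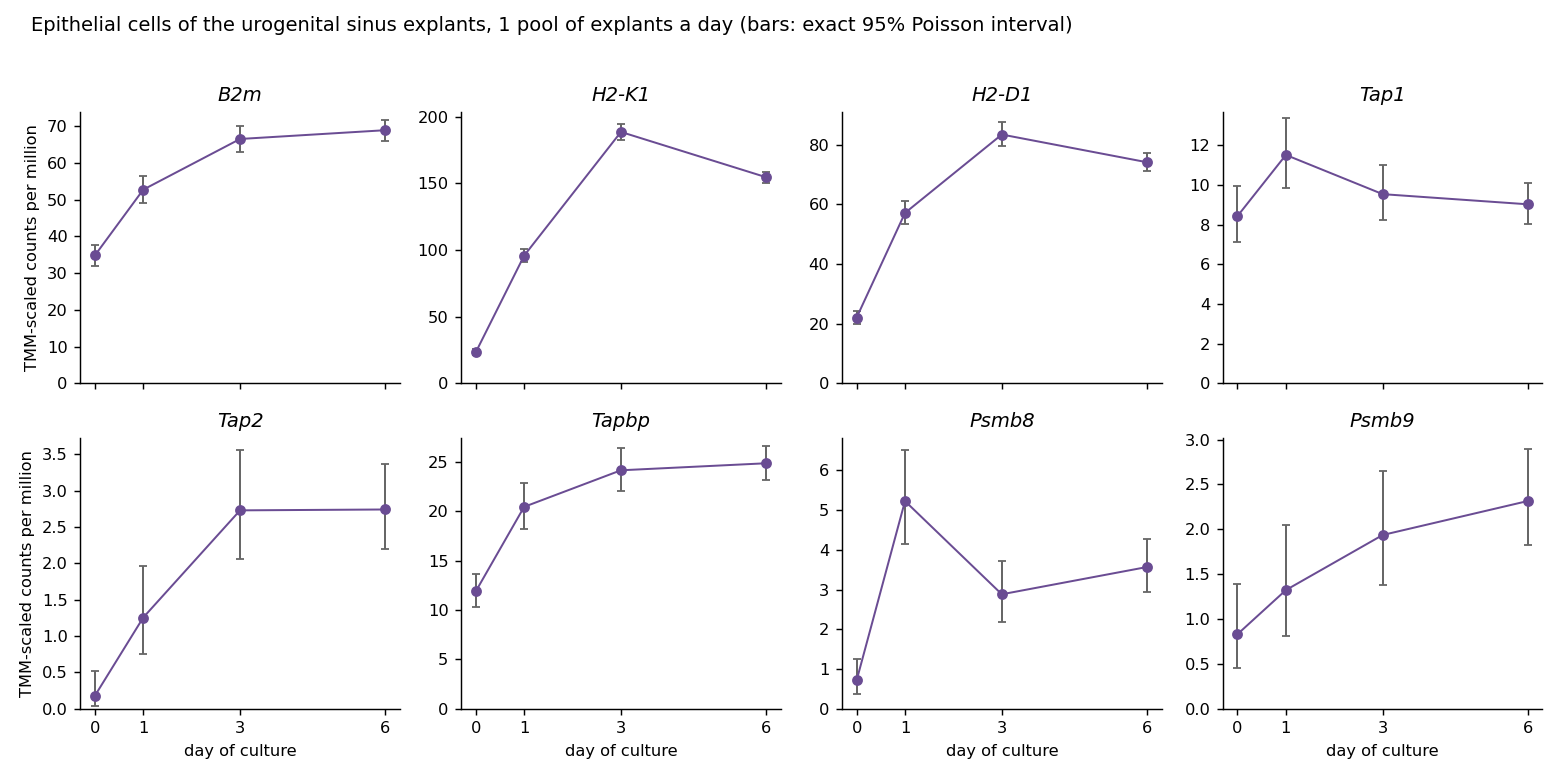
Level of each member (TMM-scaled CPM, linear axis from 0) in epithelial cells of the explants at days 0, 1, 3 and 6, 1 pool of explants a day, with exact 95% Poisson intervals for counting error. H2-K1 stands at 23.2 CPM at day 0 and 155 CPM at day 6, and Tap1 between 8.43 and 11.5 CPM throughout.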

How the data were processed

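Counts of UMIs per gene and cell were used as the authors deposited them, made with Cell Ranger 3.1.0 on mm10 (GRCm38); Seurat 3.1.5 is also named in the submitters' processing notes. Barcode counts were deposited with them, and a cell was assigned where 1 barcode exceeded the study's thresholds, by the deposited barcode names. Doublets between labelled populations were removed in this way, and no other doublet caller was run. The paper reports that labelling of intact DLP RFP+ cells failed in the runs that held castrated mice, and it used DoubletFinder there. A doublet of such an unlabelled cell with a labelled one would carry 1 barcode and may remain here. The part of such doublets in the results was not tested. Adult cells with 750 to 7500 genes and under 10% mitochondrial UMIs, and explant cells with at least 1000 genes and under 7.5%, were kept. Epithelial cells with at least 7 UMIs of Krt5 and Krt14 per 10000 were called basal and those under 3 luminal, and cells with hematopoietic, endothelial, fibroblast or seminal vesicle markers were set aside. These limits were set after seeing the marker values.

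UMIs were summed per run, population and compartment with at least 10 cells. edgeR 4.0.16 in R 4.3.3 (TMM, filterByExpr, quasi-likelihood test over 29 intact sums in 10 groups, 9 comparisons) was used with Benjamini-Hochberg adjustment over all genes tested and a threshold of 0.05; standard errors are each log2 fold change divided by the square root of its F. DESeq2 1.42.0, other scalings, no low-count filter, stricter cells, each run left out and a block for run were alternatives. Sums of 1 run come from the same pool of mice, so runs pair the groups by origin, and the same-run sums, taken as deviations from the mean of their group, had correlations of 0.161 to 0.552, apart from 0.0547 for VP and AP RFP- luminal cells of run 2. The edgeR script was tested on simulated data. Promoters are those of RefSeq on GRCm38.p6. Python 3.11.15, pandas 2.3.3, scipy 1.17.1, Biopython 1.88 and matplotlib 3.10.9 were used.

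The 9 members and the 65 genes of 7 related lists were chosen with earlier results of these data known. Named in the text are the members and, of each list, up to 3 genes with the largest change among those past the threshold with a mean of at least 10 CPM in 1 group, or without a test the 2 with the largest ratio and at least 30 UMIs in 1 sum. Runx1, Trp63 and further list genes given for comparison were chosen after their values were seen. Some genes are not reported here.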

Additional observations from a re-analysis of the deposited data

Results flagged for a closer look

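The castrated to intact log2 ratio of H2-K1 in run 2 went in opposite directions in RFP+ luminal cells of 2 lobes, 1.26 in the AP and -0.44 in the VP, with 1 sum of cells on each side. The same was seen for H2-D1, with 0.55 in the AP and -0.20 in the VP. The difference between the lobes was not tested, and without scaling factors the VP values were 0.55 and 0.79.

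For Stat2 the RFP difference among luminal cells differed between lobes by the interaction term, with a log2 value of -1.63 in the AP minus the VP (edgeR quasi-likelihood test, adjusted p = 0.0426). The adjusted p was 0.218 with DESeq2, 0.118 with RLE scaling, 0.0101 with the run as a block and 0.0963 to 0.363 when 1 run was left out.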

How the results depend on the processing

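The number of members called in AP luminal RFP+ against RFP- cells was 2. It was 1 without the low-count filter and 1 without cells near the compartment limits, 4 with the run as a replicate block, and 1 to 1 when each run was left out. For AP RFP+ basal against luminal cells the count of 3 became 5 with the block and 2 to 3 with a run left out. For VP RFP+ basal against luminal cells the count of 5 became 8 with the block, 2 without scaling factors (a setting chosen after seeing the data) and 4 to 6 with a run left out. For RFP- luminal cells of the VP against the AP the count of 2 became 5 with DESeq2, without the filter and with the block, 4 with RLE scaling and 2 to 3 with a run left out. For the DLP against the AP the count of 0 became 2 with DESeq2, 3 without the filter, and 1 each with RLE scaling, without the 50 most abundant genes in library sizes, with the block and with at least 20 cells per sum. The other 4 comparisons had 0 under every setting that could be fitted. The block changed no other call among members than those given in the text. After castration 23 intervals of members left out 0 over the 6 populations; 5 were left with a highest barcode of at least 80% and 6 with a limit of 7500 UMIs per cell, which left fewer populations. In the 5 comparisons with a called member or a call under an alternative, and among ratios after castration and in the explants whose interval left out 0, turned in sign were B2m in AP RFP+ against RFP- cells without run 3 (-0.10, in a range up to 0.46 over the runs left out), Tap2 between VP and AP with at least 20 cells (-0.017), Tap1 (-0.11) and Psmb9 (-0.66) between DLP and AP with a barcode of at least 80%, and without scaling factors H2-D1 (0.35), Tap1 (0.0083), Tap2 (0.43) and Tapbp (0.78) between VP compartments, H2-D1 (-0.23), Tap2 (-0.50) and Tapbp (-0.61) between VP and AP, and H2-K1 (0.55) and H2-D1 (0.79) after castration in the VP; the cause was not tested. In the other 4 comparisons 15 of 32 member values, none over 0.40 in size on the log2 scale, turned in sign under at least 1 setting, and none was called there. Over all genes, calls moved by more than 1.5 times as follows. Without run 2 and without run 3 they went from 2082 to 749 and 1205 for AP luminal RFP, from 31 to 0 and 0 for VP luminal RFP, from 2862 to 1566 and 1686 for the AP compartments, from 1467 to 562 and 571 for VP against AP, from 74 to 4 and 19 for DLP against AP, from 33 to 0 and 0 for VP against AP basal cells, and from 369 to 7 and 57 for the interaction; for the VP compartments they went from 4017 to 2177 without run 2. Without run 1 they went from 33 to 19 for basal cells and from 369 to 209 for the interaction. With the block they became 115 for VP luminal RFP, 300 for DLP against AP, 222 for basal cells and 1179 for the interaction, and without the filter 182, 327, 232 and 617, with 30 instead of 0 for AP basal RFP. DESeq2 gave 68 for VP luminal RFP and 53 for basal cells. Without scaling factors they became 6256 for the VP compartments, 5659 for VP against AP, 17 for basal cells and 179 for the interaction. With at least 20 cells they were 48 for VP luminal RFP and 221 for the interaction, with stricter compartment limits 8 and without the 50 most abundant genes 21 for basal cells, and with a barcode of at least 80% 43 for DLP against AP. A barcode of at least 80% left no other comparison that could be fitted. The explants had 6 members past 2-fold from day 0 to day 6 and 5 to 7 under the alternatives, and a limit of 7500 UMIs left too few day 0 cells.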

Other observations

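Castrated DLP RFP+ cells had no intact counterpart in run 2. Their luminal sum of 141 cells held 476 CPM of B2m, 766 CPM of H2-K1 and 1038 CPM of H2-D1, and their basal sum of 46 cells held 268 CPM of B2m and 717 CPM of H2-K1. In run 1, 10 castrated RFP+ luminal cells of pooled lobes held 284 CPM of B2m, 497 CPM of H2-K1, 777 CPM of H2-D1 and 110 CPM of Psmb8.

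Over the 31 intact epithelial sums the genes outside the lists whose log2 level followed the mean of the 8 members most closely were Sqor (Pearson r = 0.893), Pygb (0.869), Tmem238 (0.868), Rab15 (0.867) and Cited4 (0.865), of 4645 genes averaging 20 CPM or more. Psmb8 correlated with the mean of the other members at 0.954 and Tapbp at 0.654. The sums share libraries and mice, and the values are a description.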
